A study of Mus musculus with 13 samples.

Results

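The binding of NCOR1 in mouse liver under vehicle was compared between control mice and double-knockout (dKO) mice, whose deletion includes the nuclear receptor corepressor gene Ncor1. The comparison uses 2 of the 13 libraries of the series, 1 for each genotype, and every peak in both of their lists was a member: 39458 peaks in control liver and 17282 in dKO liver, 56740 of the 217044 peaks in the 7 lists of the series. Control peaks that shared at least 1 bp with a dKO peak were called shared. A control peak that met no dKO peak was called lost, a shared site whose log2 ratio of normalized tag count (dKO over control) was -1 or lower was called weakened, and a shared site above -1 was called kept. Kept sites with a ratio of 1 or higher are described as raised. The NCOR1 list of control liver under dexamethasone and the glucocorticoid receptor (GR) lists of the study, each made from 2 libraries, are cited only to place these sites.

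All libraries came from livers of male mice, and each genotype had 1 NCOR1 library under vehicle. Control animals are labelled GFP and dKO animals CRE, saline was injected into the peritoneum at zeitgeber time 8, and livers were frozen 2 h later at zeitgeber time 10. A control dexamethasone group, injected with 1 mg/kg in the same way, gave a single list from 2 libraries. Strain and age are not given in the labels. Neither is the promoter or carrier of Cre, so the labels do not say which liver cells keep Ncor1. Chromatin was precipitated with a rabbit antibody raised against a C-terminal stretch of NCOR1, and the labels do not say whether that stretch is removed by the deletion. Neither NCOR1 protein nor Ncor1 RNA was measured in the files used here. With 1 library per genotype no test is possible, every value describes these libraries, and the 95% intervals (exact Clopper-Pearson for shares, exact binomial on tags for single-site ratios) cover counting error only. In whole liver, fewer cells of a type and less binding per cell cannot be told apart.

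NCOR1 is a large scaffold protein that binds nuclear receptors without agonist, among them the thyroid hormone, retinoic acid and LXR receptors, and the heme-binding repressor REV-ERB. It carries the histone deacetylase HDAC3 and the TBL1 proteins to chromatin. In liver this complex is known for keeping lipid synthesis, bile acid and clock genes repressed at certain times of day, and REV-ERB is known to recruit it to Arntl and other clock genes in the light phase.

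Sequence under the peaks is shown for example promoters of each class, which were picked and need not be typical of it. They are 2 liver-specific genes whose promoter site was lost and 1 weakened site. The others are 2 kept sites at genes of the clock and of LXR, and 1 raised site. The bases are those a peak shares with the RefSeq promoter window (GRCm38.p6, 5′ to 3′ in the direction of the gene), upstream of the start, except for Arntl, where 30 bases around an element after the start are given. Capitals mark matches to the nuclear receptor hexamer AGGTCA in G6pc, where it reads on the other strand, to the REV-ERB and ROR element in Arntl, which is the hexamer behind a T and an A-rich flank, and to the direct repeat of LXR and thyroid hormone receptors in Abca1, in which the core of the hexamer occurs on both sides of a 4-base spacer. Each motif was searched on both strands. No such match is in the Ahsg, Nr0b2 and Stab1 stretches.
G6pc, lost (chr11:101367557-101367715, plus strand): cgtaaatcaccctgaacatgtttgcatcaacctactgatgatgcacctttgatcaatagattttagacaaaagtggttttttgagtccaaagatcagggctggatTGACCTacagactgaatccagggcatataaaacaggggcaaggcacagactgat
Ahsg, lost (chr16:22891805-22892005, plus strand): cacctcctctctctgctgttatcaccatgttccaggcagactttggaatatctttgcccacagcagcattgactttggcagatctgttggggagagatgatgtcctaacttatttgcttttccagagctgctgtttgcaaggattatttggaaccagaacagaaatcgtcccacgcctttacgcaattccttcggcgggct
Nr0b2, weakened (chr4:133553126-133553231, plus strand): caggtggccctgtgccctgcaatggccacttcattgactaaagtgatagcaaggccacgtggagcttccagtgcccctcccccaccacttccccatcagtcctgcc
Arntl element, kept (chr7:113207528-113207557, plus strand): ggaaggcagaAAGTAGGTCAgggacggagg
Abca1, kept (chr4:53159896-53160055, minus strand): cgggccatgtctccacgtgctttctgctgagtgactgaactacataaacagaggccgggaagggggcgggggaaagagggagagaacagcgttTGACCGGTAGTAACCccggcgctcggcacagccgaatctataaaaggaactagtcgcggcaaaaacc
Stab1, raised (chr14:31168642-31168811, minus strand): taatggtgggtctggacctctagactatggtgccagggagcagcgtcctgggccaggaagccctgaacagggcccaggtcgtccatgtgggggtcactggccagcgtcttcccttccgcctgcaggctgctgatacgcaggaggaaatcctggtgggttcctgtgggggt

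Most control sites had no peak in dKO liver. Of 39458 control peaks, 31361 were lost (79.5%, 95% interval 79.1 to 79.9), 2551 were weakened (6.47%) and 5546 were kept (14.1%). Of the 8097 shared sites 31.5% were weakened, and 663 (8.19%) were raised. The dKO list held 9185 peaks without a control peak, 53.1% of that list. The libraries had similar depth, 1.78e+07 tags in control and 1.75e+07 in dKO, but peaks held 8.52% of tags in control and 2.07% in dKO liver. Lost does not mean empty: the lowest normalized tag count in the dKO list was 5.72 (tags at the site, scaled by the authors to the same library total), and a site below that, or filtered against input or its surroundings, is not listed. A dKO peak lay within 1000 bp of 2337 lost sites (7.45%). One of them, 5.52 kb from the desaturase gene Scd1 (90.3 in control), lay 0.003 kb from a dKO-only peak of 32.9. On chromosome X 500 of 574 control peaks were lost (87.1%), and on single autosomes 76.8% to 81.4%. Control counts were lower there, with a median of 10.1 against 15.5 on autosomes.

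At shared sites the signal was mostly lower in dKO liver. The median log2 ratio was -0.39, with quartiles of -1.30 and 0.28 and a range from -4.74 to 2.52, and 5282 of 8097 shared sites (65.2%) were below 0. The ratio fell by at least 2 on the log2 scale at 1139 sites and by at least 3 at 268. The limit of -1 cut through a continuous distribution: 192 weakened sites lay between -1.1 and -1, and 211 kept sites lay between -1 and -0.9. A weak control site cannot be called weakened, since 13101 control peaks (33.2%) were below 11.44, a level from which a 2-fold fall ends under the lowest dKO count. Among the 26357 control peaks at or above that level, 79.5% were lost, 9.68% weakened and 10.8% kept.

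**Figure D1:**
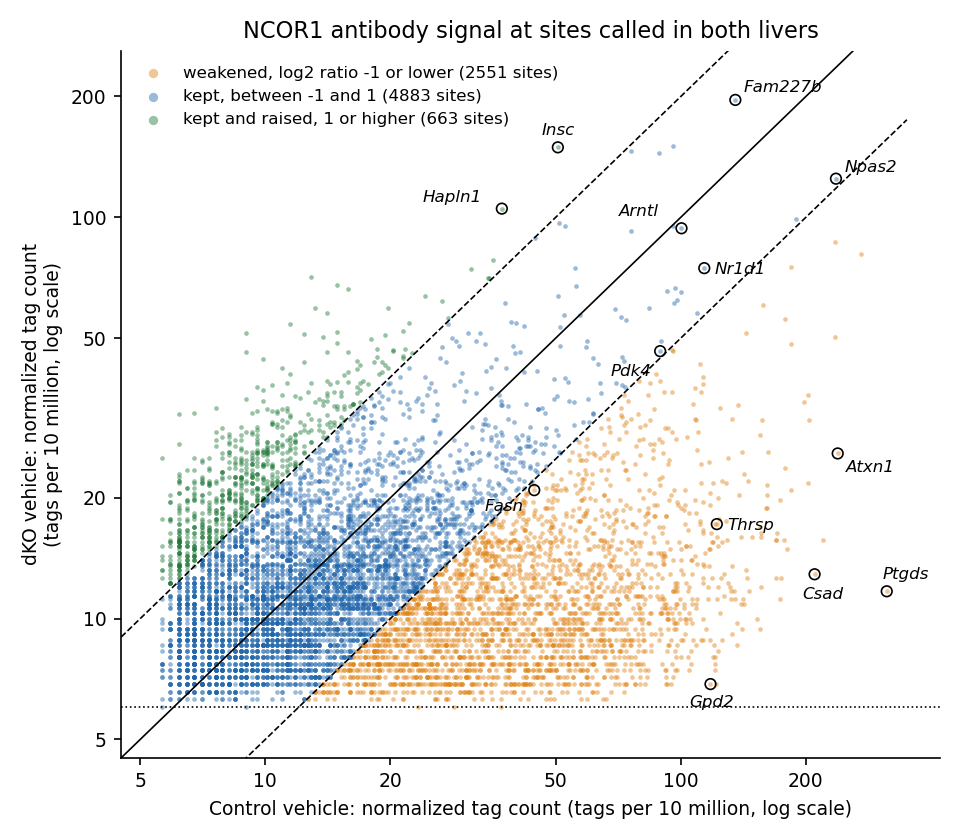
Each point is 1 of 8097 sites called in both livers, with its normalized tag count in control (x axis) and dKO liver (y axis), both on log scales; the solid line marks equal counts, the dashed lines a 2-fold difference, and the dotted line the lowest dKO count at a shared site. Most points with a high control count lie under the lower dashed line, and Arntl, Nr1d1 and Npas2 lie above it.

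The lost share differed little between strong and weak control sites, while the weakened share was higher among strong ones. Control peaks were ranked by tag count into 5 equal classes of 7891 or 7892 peaks. From the weakest class (5.06 to 9.0) to the strongest (30.4 to 313.1), 79.7%, 79.4%, 81.0%, 82.4% and 74.9% were lost. The weakened share went from 0% to 22.1% and the kept share from 20.3% to 3.03%. Only 239 of 7892 peaks in the strongest class were kept, and the median log2 ratio at shared sites was 0.53 in the weakest class and -2.13 in the strongest. Part of that slope is built in, because a weak control site enters the shared class only if its dKO count passed the calling threshold.

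**Figure D2:**
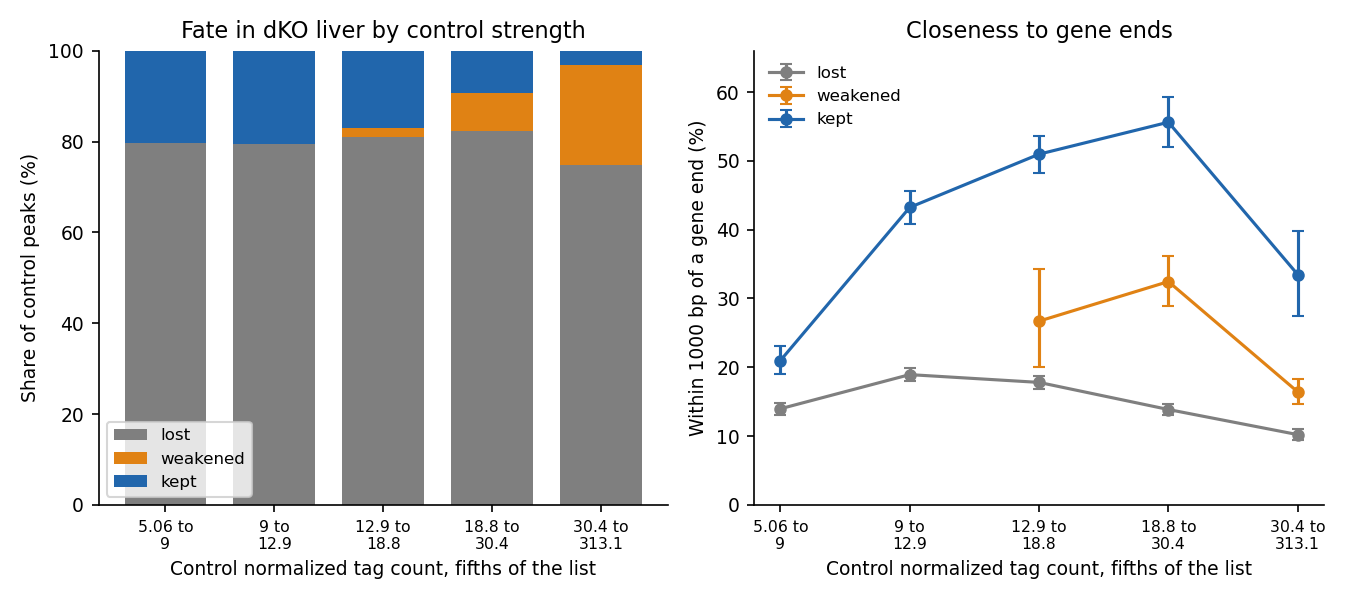
Left, stacked bars give the share of control peaks that were lost, weakened or kept in each of 5 equal classes of control tag count; right, points give the share of each group within 1000 bp of a gene end, with 95% exact binomial intervals (weakened sites only where a class held at least 20). Lost shares stay between 74.9% and 82.4%, and kept sites are closer to gene ends than lost ones in every class.

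Kept sites lay near gene ends more often than lost sites. Within 1000 bp of an end of a protein-coding gene (start or finish, measured from the peak centre) lay 39.9% of kept sites (38.6 to 41.2), 21.2% of weakened sites (19.6 to 22.8) and 15.0% of lost sites (14.6 to 15.4). The median distance was 3.84 kb for kept, 12.1 kb for weakened and 13.6 kb for lost sites. The order held in each class of control strength: kept against lost shares were 21.0% and 14.0% in the weakest class, 43.2% and 18.9%, 51.0% and 17.8%, 55.6% and 13.9%, and 33.5% and 10.2% in the strongest. Seen from the gene, 63.1% of the 7462 control peaks within 1000 bp of a gene end were lost, against 83.0% of those at 1000 to 5000 bp and 85.8% of those beyond 100000 bp. The median log2 ratio at shared sites hardly moved with distance, from -0.40 within 1000 bp to -0.29 beyond 100000 bp. Raised sites were unlike other kept sites: 6.18% lay within 1000 bp, and their median distance was 20.8 kb. Inside a gene body lay 57.7% of lost, 51.7% of weakened and 54.3% of kept sites.

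**Figure D3:**
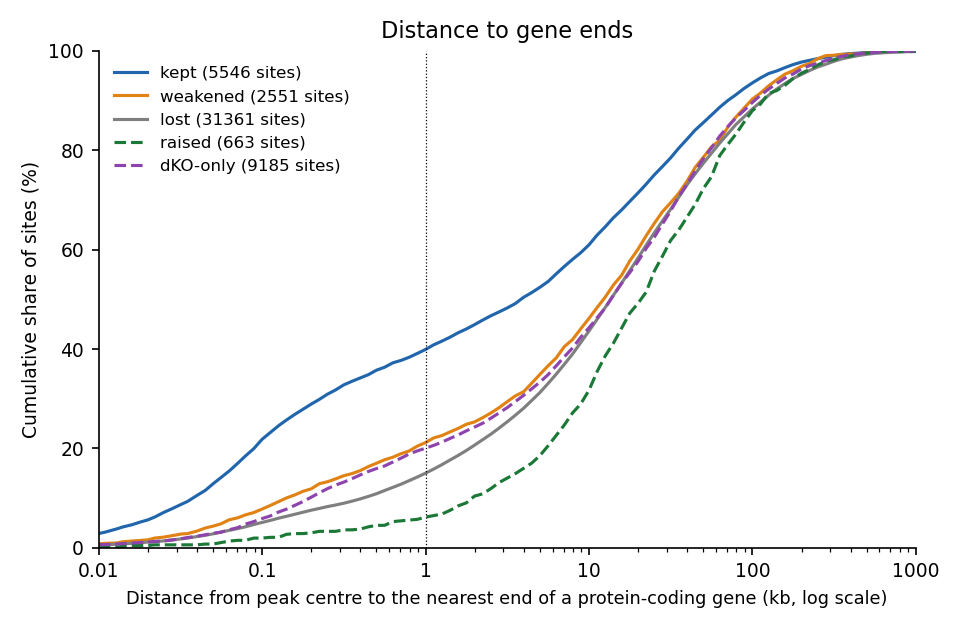
Lines give the cumulative share of sites (y axis, %) against the distance from the peak centre to the nearest end of a protein-coding gene (x axis, kb, log scale) for each class; the dotted line marks 1 kb. The line of kept sites is at 39.9% at that distance and the line of lost sites at 15.0%.

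Promoter windows showed the same order. A RefSeq window (250 bases before to 50 after a start) was met by 1765 kept sites (31.8%), 393 weakened sites (15.4%), 2725 lost sites (8.69%) and 23 raised sites (3.47%). The windows at kept sites were richer in CpG, with a median of 24 CpG per 300 bases against 19 at lost sites and 7 in all 32851 windows. The ETS motif CCGGAAG, typical of broadly active promoters, was in 27.5% of windows at kept sites, 14.8% at weakened and 15.0% at lost sites, and in 8.86% of all windows. The GC box GGGCGG was in 68.7%, 67.2% and 59.8%, against 35.7% of all windows.

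The single hexamer and the motifs of C/EBP and HNF4 were less frequent at kept than at lost sites. The composite receptor elements were in too few windows for such a comparison. The hexamer AGGTCA was in 12.9% of windows at kept sites, 22.1% at weakened sites (18.1 to 26.6) and 17.7% at lost sites, against 16.3% of all windows. The C/EBP motif TTNNGCAA was in 7.03%, 13.0% and 12.3%, against 10.8% of all windows. The HNF4 motif CAAAGTCCA was in 4 of 1765 windows at kept sites and 39 of 2724 at lost sites. The REV-ERB and ROR element, which overlaps the hexamer, was rare everywhere. It was in 4 windows at kept (0.23%) and 7 at lost sites (0.26%) and in 72 of all windows (0.22%), and an Arntl window is 1 of those 4. The direct repeat of Abca1 was in 8 windows at kept sites (0.45%) and 4 at lost sites (0.15%), and in 68 of all windows (0.21%). A match only says that these letters are in the window.

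Among lost sites within 100 kb of a protein-coding gene, taking 1 per gene, the strongest lay in or near Map3k13, Mad1l1, Cpne5, Glt1d1, Lrp1, Stx1a, Tmem217 and Cnpy3, with control counts from 149.9 to 304.4. The site in Map3k13, a kinase of the stress-activated MAP kinase cascade (chr16:21828323-21828523), had a normalized tag count of 304.4 in control vehicle and 233.5 in control dexamethasone, and the nearest dKO peak was 34.0 kb away. The site in the spindle checkpoint gene Mad1l1 (chr5:140204121-140204321) had 238.3 and 112.4. The site in Lrp1, an endocytic receptor for lipoprotein remnants, had 153.9 and 92.1. All 8 were also called in control liver under dexamethasone, so each was seen in both control lists and not in the dKO list. Of the 12243 control peaks at or above 22.88, which is 4 times the lowest dKO count, 9529 (77.8%) were lost.

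Promoter sites of glucose and plasma protein genes were among the lost. The site at the start of Pck1, the enzyme that turns oxaloacetate into phosphoenolpyruvate, had 97.3 in control vehicle and 72.5 in control dexamethasone, and the nearest dKO peak was 123.6 kb away. At G6pc, the glucose-6-phosphatase that releases glucose from the liver, the promoter site shown above had 95.4 and 68.8 and its nearest dKO peak was 5.90 kb away. The promoter site of Ahsg, the plasma protein fetuin-A, had 94.5 and 44.7, and that of the complement gene C3 had 145.7 and 107.8. In dKO liver none of these 4 was called. The genes with most sites and all of them lost (named after their values were seen) were Snd1 (24 of 24), Mob3b and Ror1 (19 of 19 each). Snd1 also had 8 dKO-only peaks, and Mob3b and Ror1 had none. Next came Agap1 and Ptprd (18 of 18 each) and Chd7 (17 of 17). Ak4, Auh, Pcsk6, Apob, Foxa2, Shank2, Gpam, Ppargc1a and Cobll1 each had 16 of 16 lost. Of these, Apob encodes the VLDL protein apolipoprotein B and Foxa2 a pioneer factor of hepatocytes. Gpam encodes an enzyme of triglyceride synthesis and Ppargc1a a coactivator of gluconeogenesis. Across the genome, 6140 of 11435 genes with a control site (53.7%) had only lost sites. Among 1018 genes with at least 8 control sites, 183 had lost all of them, and 12 had at least as many kept as other sites. Of those 12, also named after their values were seen, Ankrd44 kept 8 of 12 and Rgl1 7 of 11.

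The strongest weakened site was also the strongest control peak. It lay 2.66 kb from Ptgds, a prostaglandin D2 synthase (chr2:25472675-25472875), with 313.1 in control vehicle, 220.8 in control dexamethasone and 11.7 in dKO liver, a log2 ratio of -4.74 (-5.49 to -4.13). That was the lowest ratio of all shared sites. The site nearest Atxn1, an ataxin gene, had 238.6, 265.2 and 25.8 (-3.21, -3.69 to -2.77), and the site in Pdp2, a phosphatase that activates pyruvate dehydrogenase, had 220.5, 176.8 and 15.7 (-3.81). The gap between control vehicle and dKO at these sites follows from choosing strong sites of the weakened class. Control dexamethasone values played no part in that choice, and at each of these sites they were also at least 100 above the dKO value. Among strong shared sites, the next lowest ratios were at Gpd2, the mitochondrial glycerol-3-phosphate dehydrogenase (117.9, 80.9 and 6.87, -4.10), at the acyl-CoA thioesterase gene Acot11 (155.0, 83.2 and 9.45, -4.04) and at the taurine synthesis gene Csad (209.9, 199.4 and 12.9, -4.02). A smaller fall was seen at Fcna, a complement-activating lectin of macrophages, with 234.9, 184.7 and 87.0 (-1.43).

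Weakened sites included regulators of lipid and bile acid metabolism. Nr0b2 encodes SHP, a receptor-like repressor of bile acid synthesis, and its 4 control sites were 1 lost and 3 weakened. Its strongest site had 154.7, 106.2 and 16.9 in control vehicle, control dexamethasone and dKO (-3.19), and the promoter site shown above had 108.0, 84.8 and 14.3 (-2.92). The site 0.178 kb from Cyp7a1, whose enzyme starts the classic route from cholesterol to bile acids, had 67.0, 58.1 and 8.87 (-2.92). A site by Thrsp, a thyroid hormone-responsive lipogenic gene, had 122.1, 62.8 and 17.2 (-2.83), and a site in Mlxipl, which encodes the carbohydrate-responsive factor ChREBP, had 121.2, 75.4 and 7.73 (-3.97). At Fasn, the fatty acid synthase gene, the ratio was -1.09 (-1.72 to -0.52) from 44.4 and 20.9, so its interval reached across the limit of -1. At a site 44.6 kb from Irs2, an insulin receptor substrate, 158.1 in control vehicle compared with 316.1 in control dexamethasone and 60.4 in dKO liver (-1.39).

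The strongest kept sites included several at clock genes. Npas2, a partner of BMAL1, had a site 0.842 kb from the gene (chr1:39192760-39192960) with 236.3 in control vehicle, 289.9 in control dexamethasone and 124.8 in dKO liver, a ratio of -0.92 (-1.16 to -0.68) that lies just inside the kept class. The site of Arntl, which encodes BMAL1, lay across a RefSeq start inside the annotated gene, 29.0 kb from its nearest outer end (chr7:113207410-113207610), and had 100.4, 108.6 and 93.9, a ratio of -0.10 (-0.41 to 0.22). It covers the element shown above. The site 8.09 kb from Nr1d1, which encodes REV-ERBα (chr11:98783363-98783563), had 113.9, 82.6 and 74.7 (-0.61), and the site in the output gene Dbp had 96.8, 100 and 66.7 (-0.54, -0.90 to -0.20). At these 4 sites dKO counts were 66.7 to 124.8, and the dKO median over all its peaks was 10.0. That gap follows from the class rule, because a site this strong in control is kept only if its dKO count is high. Other strong kept sites lay nearest to Nrip1, the corepressor RIP140 (62.0 kb away, 109.4, 87.6 and 57.8), to Fcrl5 (100.1, 76.8 and 65) and nearest to the copine gene Cpne8 (87.0 kb away, 97.9, 140.6 and 62.4).

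Over the whole clock list, 60 of 87 sites were lost (69.0%), 13 weakened (14.9%) and 14 kept (16.1%, 9.1 to 25.5). Over all gene-assigned sites 79.1% were lost, 6.50% weakened and 14.4% kept, so the kept share of the clock list was close to that of all genes. None of its 15 sites in the weakest 2 classes was kept. Among the 30 clock sites in the strongest class of control peaks, 15 were lost, 8 weakened and 7 kept (23.3%), while 3.15% of the 7437 gene-assigned sites of that class were kept. Nr1d1, counted here with the nuclear receptors, kept all 3 of its sites, whereas all 3 of Nr1d2, the gene of REV-ERBβ, were lost (strongest 51.5), with a dKO-only peak of 24 lying 0.031 kb from a control peak. The 2 strongest shared sites of the output gene Hlf, at 99.0 and 48.7 in control, had 10.3 each in dKO liver (-3.26 and -2.24). Both sites of the period gene Per1 were lost, the stronger from 36.3, and 8 of 9 sites of Per2 were lost. At the repressor gene Cry1 a site had 32.4 in control vehicle, 75.6 in control dexamethasone and 9.73 in dKO liver (-1.74), and at Cry2 a site had 24.8, 24.7 and 22.6 (-0.13). The Cry1 site was thus weakened and the Cry2 site kept. The median ratio over 27 shared clock sites was -1.0, against -0.39 over all shared sites assigned to a gene. The strongest 2 classes held 25 of these 27 sites, and there the order was reversed, with -1.01 for clock genes and -1.51 for all genes.

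**Figure D4:**
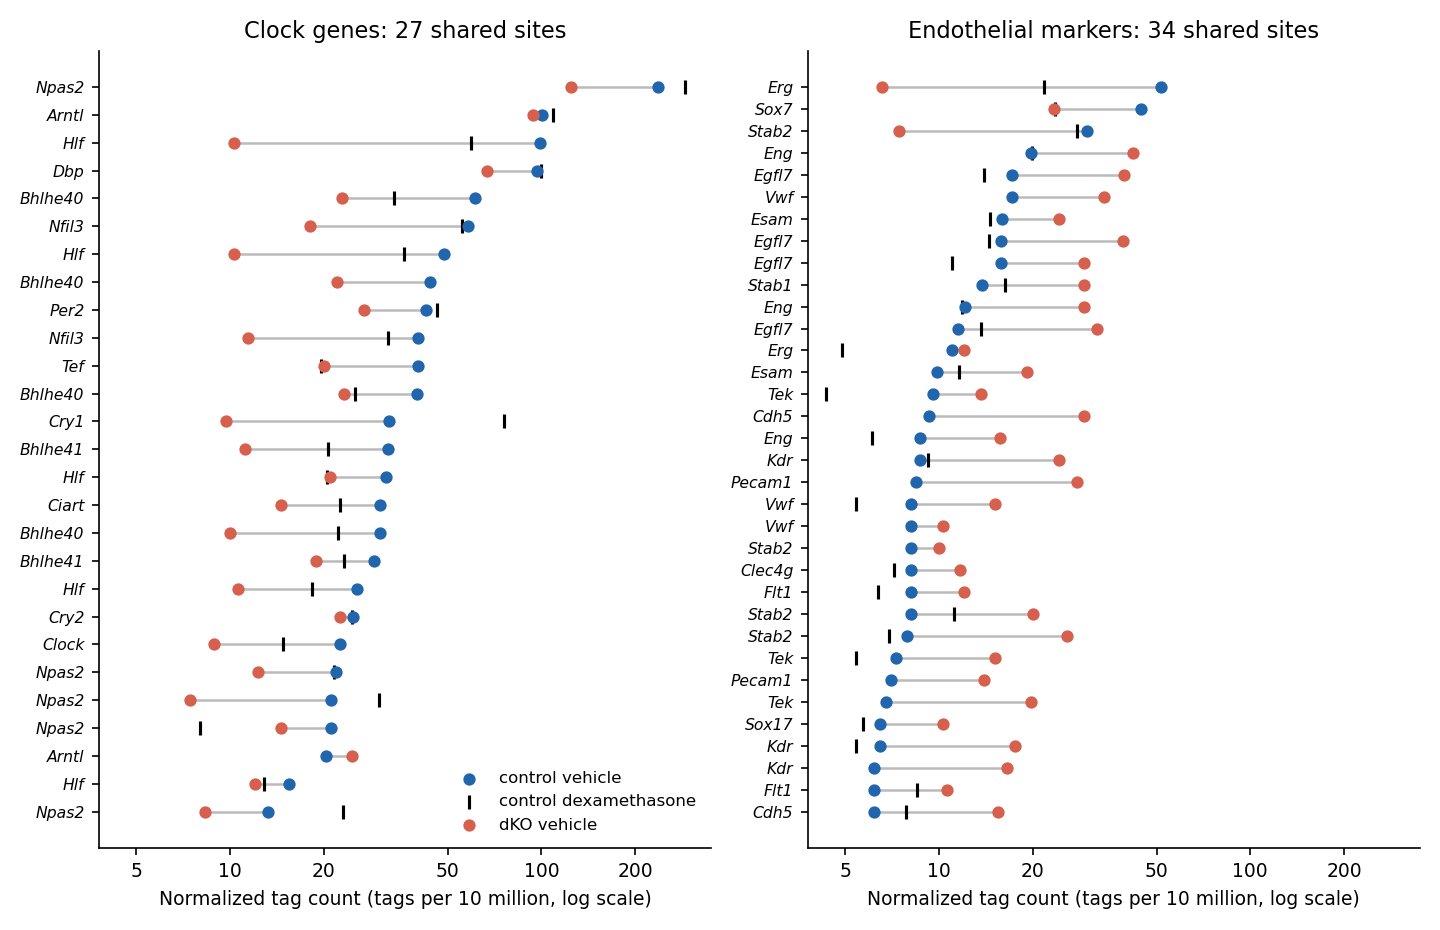
Each row is 1 shared site, named by its gene, with its normalized tag count (x axis, log scale) in control vehicle (blue), dKO vehicle (red) and, where a peak was called, control dexamethasone (black bar). dKO counts are below control at 26 of 27 clock sites and above it at 31 of 34 endothelial marker sites. Over all 8097 shared sites 65.2% were below control. The 2 panels differ in control strength. The strongest 2 classes held 25 of the 27 clock sites, and the median ratio over all genes there was -1.51. The weakest 2 classes held 24 of the 34 endothelial sites, and the median ratio over all genes there was 0.29.

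A few metabolic sites were kept at high counts. At Pdk4, the kinase that shuts off pyruvate dehydrogenase in fasting, the promoter site had 89.2 in control vehicle, 59.2 in control dexamethasone and 46.4 in dKO liver (-0.94, -1.34 to -0.54). At the cholesterol exporter gene Abca1, an LXR target, the promoter site shown above had 53.4, 74.2 and 38.9 (-0.46), and a site 58.3 kb away had 63.9, 70.6 and 38.6 (-0.73). At Lpcat3, another LXR target that remodels phospholipids, 96.2, 128.8 and 61.0 gave -0.66 (-1.03 to -0.31). At Srebf1, the SREBP-1 gene, the strongest kept site had 45.3, 65 and 33.2 (-0.45, -0.95 to 0.07). The promoter site of the retinoic acid receptor gene Rarb had 51.2, 57.7 and 53.2 (0.06, -0.38 to 0.49). The same genes also lost sites: 17 of 25 sites of Abca1 and 5 of 7 of Pdk4 were not called in dKO liver.

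Some strong sites had more signal in dKO liver. A site in Acacb, the acetyl-CoA carboxylase of fat oxidation control, had 88.6 in control vehicle, 28.7 in control dexamethasone and 144.6 in dKO liver (0.71, 0.41 to 0.99). The site in Fam227b had 135.3, 36.6 and 196.1 (0.54), and 196.1 was the highest count in the dKO list. The highest ratios among shared sites with a control count above the shared median were nearest to Gm8882 (99.6 kb away, 19.7, 4.33 and 59.5, 1.59), Insc (29.0 kb away, 50.6, 18.0 and 149.4, 1.56), Hapln1 (37.1, 15.0 and 105.1, 1.5), Jph1 (18.0, 6.23 and 49.8, 1.47) and Kazn (19.4, 20.3 and 51.0, 1.39). All of these except Kazn had their lowest count in control dexamethasone, so the control lists also differed at them. The 5 sites with the highest ratios met a GR peak of control vehicle liver. Such a peak met only 29.7% of all raised sites, and 44.7% of all shared sites.

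Weak sites of endothelial marker genes were often higher in dKO liver, and strong ones were not. Of 72 control sites near 17 of 20 endothelial markers, 38 were lost (52.8%), 2 weakened and 32 kept (44.4%). Of the 34 shared sites 16 were raised, against 7.79% of shared sites over all genes. The median log2 ratio of the 34 was 0.98, where all shared sites assigned to a gene had -0.39. In the weakest 2 classes of control strength the medians were 1.02 for endothelial and 0.29 for all sites. There 12 of 24 shared endothelial sites were raised, against 520 of 3049 over all genes. In the strongest 2 classes 12 of 16 endothelial sites were lost (75%) and the median of the 4 shared ones was -1.46, against 78.5% and -1.51 for all genes. Near Cdh5, the VE-cadherin gene, a site had 9.28 in control vehicle and 29.2 in dKO liver (1.65, 0.86 to 2.61). A site in Pecam1, which encodes CD31, had 8.44 and 27.8 (1.72, 0.84 to 2.65), and a site in Eng, an endothelial coreceptor of TGF-beta ligands, had 19.7, 19.9 in control dexamethasone and 42.1 (1.10, 0.51 to 1.73). Of the 6 control sites of the VEGF receptor gene Kdr, 3 were lost. The other 3 were raised, with 6.19 to 8.72 in control and 16.6 to 24.3 in dKO liver. The promoter site of Stab1, a scavenger receptor of sinusoidal endothelium shown above, had 13.8, 16.3 and 29.2 (1.08). Not every site rose: Erg, an endothelial transcription factor, had a site 50.2 kb away at 51.8 in control and 6.58 in dKO liver (-2.98), and the strongest Lyve1 site (65) was lost.

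These sites were weak in control liver, with a median count of 11.2 over the list against 15.5 over all sites. In the weakest 2 classes, 24 of 41 endothelial sites (58.5%) were kept, against 20.9% of 14546 sites assigned to any gene. Summed over the list, counts were 1133 at 72 sites in control vehicle (mean 15.7 per site), 953 at 75 sites in control dexamethasone (12.7) and 1441 at 94 sites in dKO liver (15.3). The endothelial sum was thus larger in dKO liver with more called sites, at a like mean per site, and these sums move with how many peaks were called. Of the 20 markers only Sox18 had no dKO site. For hepatocyte markers both the number of sites and their mean were lower in dKO liver. Sums were 4692 at 139 sites in control (33.8), 3015 at 121 in control dexamethasone (24.9) and 253 at 21 sites in dKO liver (12.0). No dKO site was called at 11 of the 24 genes, among them Apob, Ttr and Serpina1a. All control sites were lost at 14 of the 24, not far from the share over all genes with a control site (6140 of 11435, 53.7%). Kupffer cell and leukocyte markers held few sites in any list, 12 in control and 6 in dKO liver, and Adgre1, Cd68 and Vsig4 had none in either. Stellate and cholangiocyte markers had 32 and 10. What share of the cells in each liver was endothelial was not measured, and the part of cell composition in these values was not tested.

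Peaks found only in dKO liver were weak. Their median count was 9.16, and 20.0% lay within 1000 bp of a gene end. The highest count was 62.1. Among peaks within 100 kb of a protein-coding gene, the strongest lay in Dhrs3, a retinaldehyde reductase, with 49.2 (chr4:144898358-144898558) and in the ubiquitin ligase gene Rnf144a with 44.4, and neither had a peak in either control list. Those near Camk2n1 (40.1), Adam19 (39.2) and Ier5 (35.2) lay 0.175, 0.206 and 0.033 kb from a control peak. Of the 9185 peaks, 1681 (18.3%) had a control peak within 1000 bp, and 22.4% met a control dexamethasone peak, against 79.4% of shared sites. The share of dKO peaks without a control peak fell with strength, from 69.5% of the weakest to 30.1% of the strongest of 5 classes. Among genes with the most dKO-only peaks (named after their values were seen) were Rad51b (16), Etv6 (14), Kdr and Nav1 (13 each) and Erg (11). The endothelial list held 60 dKO-only peaks near 17 genes, 63.8% of its dKO sites, against 52.7% over all genes. Other marker lists had like shares on few sites, 66.7% of 6 for Kupffer cell and leukocyte and 60% of 10 for stellate and cholangiocyte markers. Hepatocyte markers had 28.6% of 21.

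Hepatocyte marker, gluconeogenesis and lipogenesis genes had larger shares of lost sites than all genes. Of 139 sites near hepatocyte markers, 124 were lost (89.2%), 13 weakened and 2 kept, where all 36831 gene-assigned sites had 79.1% lost, 6.50% weakened and 14.4% kept. For gluconeogenesis and amino acid catabolism these counts were 127, 16 and 3 of 146, and for lipogenesis 128, 15 and 7 of 150. The interval of the lost share for lipogenesis (78.6 to 90.6) holds the 79.1% of all genes. In the strongest class of control sites 82.4% of 68 hepatocyte and 81.8% of 77 gluconeogenesis sites were lost, against 75% over all genes. None of them was kept, but the kept share over all genes was itself only 3.15% there. Ribosomal protein genes (8 sites) and proteasome, chaperonin and splicing genes (7 sites) also kept none in that class. Lipogenesis differed there, with 43 of 60 sites lost (71.7%) and 5 kept (8.33%), against 75% and 3.15% over all genes. Median ratios at the shared sites of these 3 lists, over all classes, were -2.12, -1.64 and -1.56. In the strongest class they were -2.28, -2.39 and -1.91, against -2.09 over all genes. Examples are sites nearest to the fibrinogen gene Fgg (102.4 in control vehicle, 65.6 in control dexamethasone and 10.0 in dKO liver), the liver factor gene Cebpa (102.4, 26.8 and 17.2) and Fbp1, a gluconeogenic phosphatase (84.7, 43.7 and 8.59). These genes had stronger control sites than average, with median counts of 26.3 to 32.5 over the 3 lists against 15.5 over all sites.

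Lists of lipid oxidation, sterol, thyroid hormone and nuclear receptor genes had lost shares near the 79.1% of all genes, from 75.5% to 81.9%, and kept shares of 6.90% to 10.2% against 14.4%. Their control sites were stronger than average, with median counts of 21.55 to 30.1 against 15.5 over all sites. Within the strongest class, 2 of 42 lipid oxidation, 5 of 46 sterol, 2 of 21 thyroid hormone and 4 of 82 nuclear receptor sites were kept. These shares, 4.76% to 10.9% against 3.15% of all genes, rest on few kept sites. Median ratios of that class ranged from -2.29 to -1.41, against -2.09 over all genes. Of 87 sites near fatty acid oxidation and ketogenesis genes, 70 were lost, 11 weakened and 6 kept, with a median ratio of -1.34. Of 128 sites near cholesterol, LXR and bile acid genes, 104 were lost, 11 weakened and 13 kept (-0.91). Of 49 sites near thyroid hormone targets, 37 were lost, 7 weakened and 5 kept (-1.19), among them Klf9, a Krüppel-like factor gene, whose neighbouring sites had 84.4 and 27.2 (-1.63) and 69.8 and 38.6 (-0.85). Nuclear receptor genes had 190 lost, 20 weakened and 22 kept of 232 sites. The strongest site nearest to Rxra, the gene of the common partner RXRα, was 51.4 kb away and had 169.3, 94.3 and 15.7 (-3.43), and that of Ppara, the fasting receptor, had 103.5 and 95.9 in the control lists and was lost.

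Genes of the corepressor complex itself carried NCOR1 sites. The promoter site of Tbl1xr1, a TBL1 subunit, had 96.2 in control vehicle, 78.4 in control dexamethasone and 20.9 in dKO liver (-2.20), and the related Tbl1x had 81.9, 65.4 and 30.3 (-1.43). Ncor1 had 3 sites, 2 of them lost and 1 kept at 15.2 in control and 12.6 in dKO liver (-0.27, -1.15 to 0.60). These peaks do not show how much NCOR1 protein was left.

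Sites of housekeeping genes were kept more often than those of all genes. Many of these sites lay at gene ends, where 29.7% of the 7462 sites of all genes were kept. Of 94 sites near ribosomal protein genes, 51 were lost (54.3%), 2 weakened and 41 kept (43.6%), against 14.4% kept over all genes. Within 1000 bp of a gene end 37 of their 52 sites were kept, and in the strongest class 0 of 8. Their median ratio was -0.03, the closest to 0 of all lists. The promoter site of Rps3a1 had 30.1, 20.9 and 21.8 (-0.47, -1.12 to 0.14). Proteasome, chaperonin and splicing genes had 36 lost, 3 weakened and 16 kept (29.1%) of 55 sites, and 11 of 20 were kept within 1000 bp of a gene end. Neuronal genes, which liver does not express at high levels, had 18 of 19 sites lost (94.7%, 74.0 to 99.9). That interval holds the 79.1% of all genes. Of their 6 dKO sites, 5 had no control peak.

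**Figure D5:**
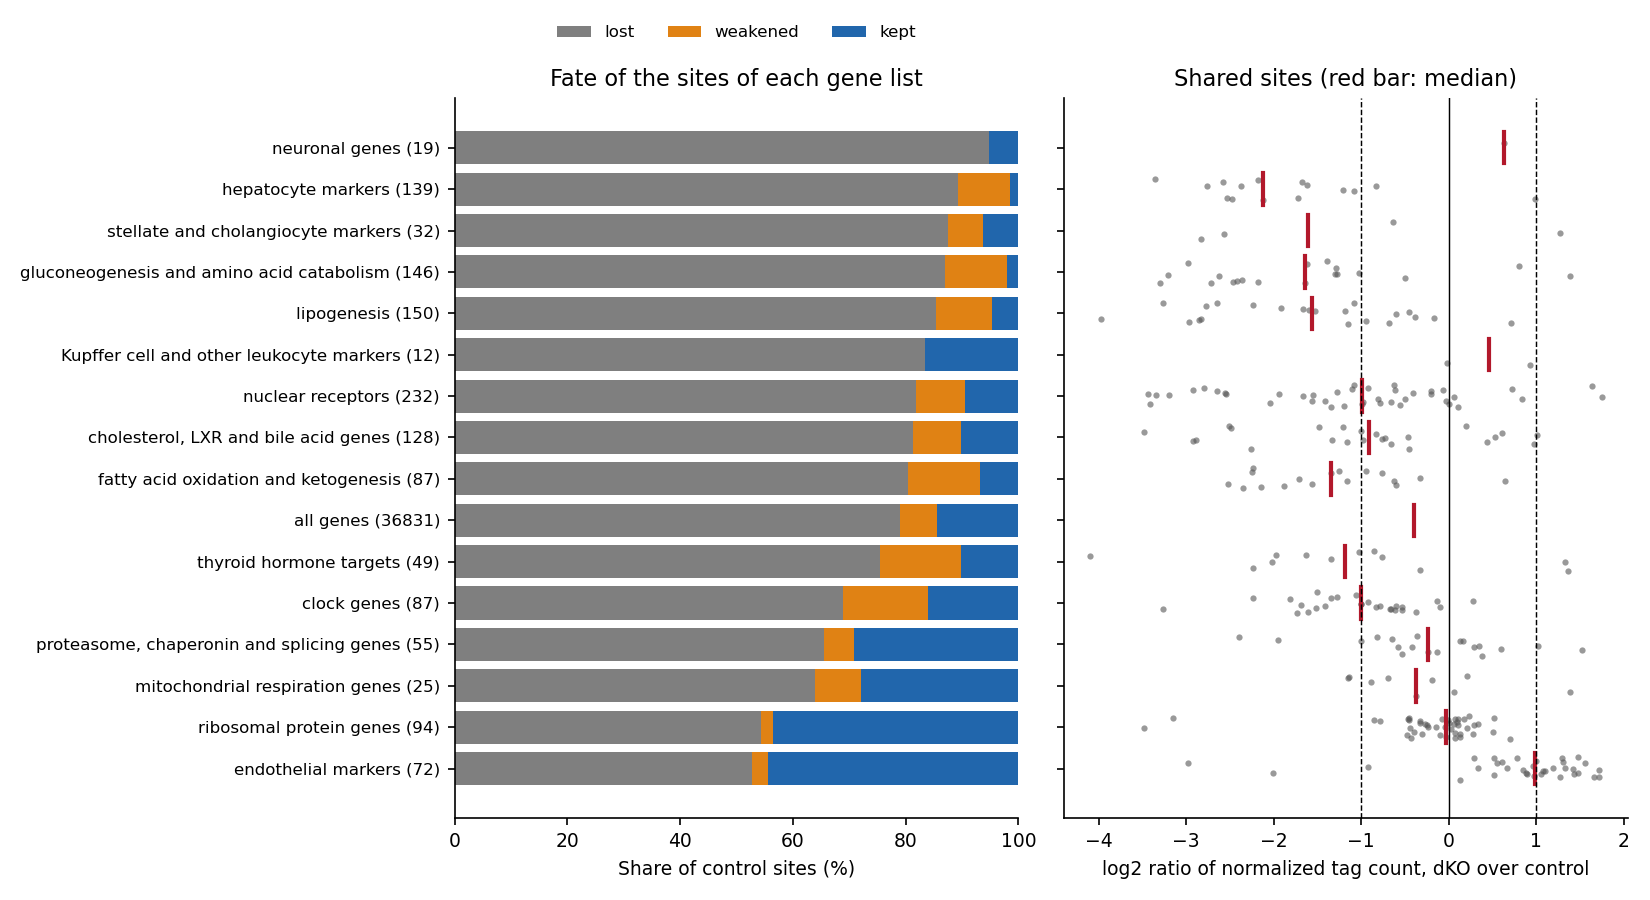
Left, bars give the share of control sites (%) that were lost, weakened or kept for each gene list, with the number of sites in brackets; right, points give the log2 ratio of each shared site and red bars the median (for all genes the median alone). Hepatocyte and gluconeogenesis genes keep fewest of the larger lists, and endothelial and ribosomal protein genes keep most.

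Weakened sites were the class most often called in the other lists. Of weakened sites 94.9% (94.0 to 95.8) were also called in control liver under dexamethasone, against 72.3% of kept and 64.1% of lost sites. Weakened sites are strong by definition, and at like strength the difference from kept sites was small: 97.6% against 94.6% in the strongest class, 90.4% against 86.6% in the next and 85.1% against 82.2% in the middle one. For lost sites this share grew with strength, from 40.5% of the weakest to 89.1% of the strongest class, so weak lost sites were also those most often absent from the other control list. GR peaks of control vehicle liver met 69.0% of weakened, 40.4% of lost and 33.5% of kept sites. In the strongest class GR met 70.9% of lost, 76.2% of weakened and 53.1% of kept sites. Of dKO-only peaks 9.31% met a control GR peak, and 10.6% met a GR peak of dKO liver.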

How the data were processed

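ChIP-seq peak lists of NCOR1 from 1 control and 1 dKO liver library under vehicle were compared. The submitters' processing notes list HOMER 4.11, BWA 0.7.17, bedtools 2.29.2, Trim Galore 0.6.4 and the build mm10, without their order. Peaks of 200 bp were called against input with a minimum 4-fold over input and over the local 10 kb, per the file headers. The normalized tag count is a signal deposited by the authors, scaled to 10000000 tags per list. The findPeaks score, the fold over input (a ratio) and the unscaled tags per peak are other values deposited by the authors. Depth was 1.78e+07 and 1.75e+07 tags, which limits weak sites.

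Peaks were paired by 1 bp (the largest overlap where several met), and 0 of 39458 calls differed from bedtools 2.31.1. Pairing was tested on simulated data. Each peak was assigned to the nearest of 21887 protein-coding genes within 100000 bp (RefSeq, GRCm38.p6, the assembly that mm10 names). Named sites are the 8 strongest per class, the 5 lowest and 5 highest ratios above the median shared strength, up to 4 per gene list and class, and a panel of 16 genes. Members, lists and motifs were chosen with earlier results of these data known. Python 3.11.15, pandas 2.3.3 and scipy 1.17.1 were used. One item, and the counts of the corepressor gene list, are not reported here.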

Additional observations from a re-analysis of the deposited data

How the results depend on the processing

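The median log2 ratio stayed below 0 under every alternative run here, though by strength class it was 0.53 in the weakest and 0.06 in the next. The shares below are, in order and where given, control peaks lost, dKO peaks without a control peak, shared sites weakened, and lost and kept sites near a gene end. An overlap of 100 bp gave 82.3%, 59.7%, 16.1% near ends for lost and 37.7% for kept sites. Pairing within 1000 bp gave 73.6%, 43.4%, a median log2 ratio of -0.44, and 12.8% and 42.2% near ends. At least 8-fold over input gave 87.1%, 61.5%, a median of -0.33, and 14.2% and 33.2% near ends. Lists of equal length gave 79.0% lost, which equals the dKO-only share by construction (79.0%), and 12.4% and 50.5% near ends. Scaling to tags outside peaks gave a median of -0.49 and 34.1% weakened. A 1.5-fold limit gave 42.8% weakened and 37.2% of kept sites near ends, and a 4-fold limit 14.1% and 37.9%. Counting ends within 5000 bp gave 31.2% of lost and 52.4% of kept sites, and ends of all annotated genes 20.3% and 45.8%. The strongest 5th class of control peaks gave 74.9% lost and 10.2% of lost sites near ends. For that class, the 87.9% weakened, 33.5% of kept sites near ends and the median of -2.13 were added after the data were seen. With the findPeaks score all 3 values stayed within the main intervals. No paired analysis was possible because each genotype has 1 library, and for the same reason no library could be left out. Depth limits weak sites: below 11.44 a 2-fold fall cannot be seen.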
